A study of Mus musculus with 4 samples.

Results

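The genes described here are 10 neuropeptide precursors that sensory ganglia make in smaller amounts or in fewer neurons than substance P and CGRP: Cartpt, Gal, Sst, Npy, Vip, Cck, Nts, Nmb, Grp and Nppb. They were found by the gene symbol of the platform annotation, and each had 1 probe set, so 10 probe sets of the 45101 on the array are described (10 genes of the 18193 that had a probe set with 1 symbol). Total RNA of freshly dissected mouse dorsal root ganglia had been hybridised to 4 Affymetrix arrays. Of these, 2 arrays carried RNA of ganglia from one level, called the sample-1 level after the labels, and 2 carried RNA from the other level, the sample-2 level. Strain, age, sex and genotype are not given in the labels, no agent is named, dissection is the only treatment listed, and the levels are not named. Whether the 2 arrays of a level hold RNA of different animals is not stated, so a p-value here reflects array-to-array spread, which could be technical alone. The deposited values are scaled intensities on a linear scale, with an array median of 25.9 to 27.3, and having 2 arrays a level limits the precision.

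Neuropeptides are cut from larger precursor proteins inside dense-core vesicles by prohormone convertases, trimmed by carboxypeptidase E and, for many, amidated at the carboxyl end. They are released from the central and peripheral endings of sensory neurons and act mostly on G protein-coupled receptors. The natriuretic peptides are an exception, as their signalling receptors are guanylyl cyclases. In sensory ganglia Nppb, Sst and Nts mark a class of itch neurons, Gal, Npy and Vip are known as genes that axon injury induces, and Nmb and Grp encode bombesin-like peptides. Cartpt encodes CART, a peptide best known from feeding circuits of the hypothalamus and found in some visceral sensory and autonomic neurons.

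Many neuropeptide promoters hold a cyclic AMP response element, bound by CREB, and the promoter of Sst is the classic example. The sequences below are shown because Cartpt, the gene of the set that differed between levels, shares the whole element with Sst, which did not pass the test, and its first 6 letters with Vip, which was too dim to be tested. Each is the 250 bases before the start site that RefSeq's promoter table gives (GRCm38.p6), 5′ to 3′ on the strand of the gene, with matches to the motifs searched in capitals.
Cartpt (chr13:99900684-99900933, strand minus): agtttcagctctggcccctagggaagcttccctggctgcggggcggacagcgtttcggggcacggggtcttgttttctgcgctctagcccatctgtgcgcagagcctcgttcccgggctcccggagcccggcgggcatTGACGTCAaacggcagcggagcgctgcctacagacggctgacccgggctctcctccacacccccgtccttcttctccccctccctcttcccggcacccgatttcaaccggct
Sst (chr16:23890845-23891094, strand minus): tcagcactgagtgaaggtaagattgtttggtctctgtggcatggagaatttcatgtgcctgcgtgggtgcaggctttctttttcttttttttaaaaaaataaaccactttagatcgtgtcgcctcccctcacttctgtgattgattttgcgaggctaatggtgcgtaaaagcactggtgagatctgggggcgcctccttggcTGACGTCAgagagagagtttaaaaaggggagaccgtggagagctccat
Vip (chr10:5638968-5639217, strand plus): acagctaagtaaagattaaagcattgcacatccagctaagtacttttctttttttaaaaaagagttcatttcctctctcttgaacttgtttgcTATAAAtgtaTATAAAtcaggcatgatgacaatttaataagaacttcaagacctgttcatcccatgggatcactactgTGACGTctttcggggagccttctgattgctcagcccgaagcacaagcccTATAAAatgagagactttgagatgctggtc
The motifs were searched on both strands, and the shorter ones lie within the longer. The palindrome TGACGTCA began 112 bases before the start of Cartpt and 48 bases before that of Sst, and it occurred in 1.55% of the 32851 promoter windows of the table. TGACGT began 79 bases before the start of Vip and occurred in 6.47% of windows. TGACG, with 17.8% of windows, was also matched on the other strand of Cck and Nts, 47 and 166 bases before the start. TATAAA, with 12.4% of windows, was matched in Vip and Nppb, 30 and 31 bases before the start, and at 2 further places in Vip. The windows of Gal, Npy and Nmb held none of these strings. Windows of 9 of the 10 genes were searched, and no window was used for Grp. The arrays measured no binding, so these are matches of letters only.

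Cartpt rose. It measured 170.0 and 159 at the sample-1 level against 540.1 and 631 at the sample-2 level, so the lower sample-2 array stood 3.18 times above the higher sample-1 array. The level means were 165 ± 7.50 (SD, n = 2) and 586 ± 64.4 (SD, n = 2), a ratio of 3.56. On the log2(intensity + 16) scale used for testing, which makes differences of dim probe sets smaller than the true ratio, the difference was 1.73 ± 0.12 (estimate ± SE). Its 95% confidence interval ran from 1.48 to 1.98, that is from 2.79-fold to 3.95-fold. With limma over the 27022 tested probe sets and Benjamini-Hochberg adjustment, the adjusted p was 6.93e-05, and Cartpt ranked 2 by p-value. Among the 4 arrays its intensity moved from the 76.3 percentile of all probe sets at its lowest to the 91.9 percentile at its highest. With any 1 array left out the difference stayed between 1.62 and 1.84, with adjusted p from 2.16e-05 to 0.000120. The call was lost when the fit gave all intensities the same prior spread (eBayes without the intensity trend, adjusted p = 0.277, the difference still 1.73). In whole-ganglion RNA, more cells that express a gene and more RNA per cell cannot be told apart.

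Of the 8 genes of the set that could be tested, Cartpt was the 1 that passed adjusted p 0.05, against 0.622% of all tested probe sets that passed, 0.222% as higher and 0.4% as lower. 6 of the 8 differences lay above 0, and 51.1% of all tested probe sets did. For 4 of the 8, Cartpt, Gal, Sst and Nppb, both sample-2 arrays lay above both sample-1 arrays, and 0 lay below. Among all tested probe sets those shares were 21.1% and 20.1%. The median difference of the 8 was 0.24, against 0.0046 for all tested probe sets. Grp, with a sample-1 mean of 11.9 under the filter level, was tested only through its sample-2 mean of 17.8. Of the 7 genes whose means lay above the filter level at both levels, 5 differences were above 0, with a median of 0.23. Without the filter, 8 of all 10 were above 0. Vip and Cck fell under the filter on low signal, which corresponds to an intensity of 14.3.

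**Figure D1:**
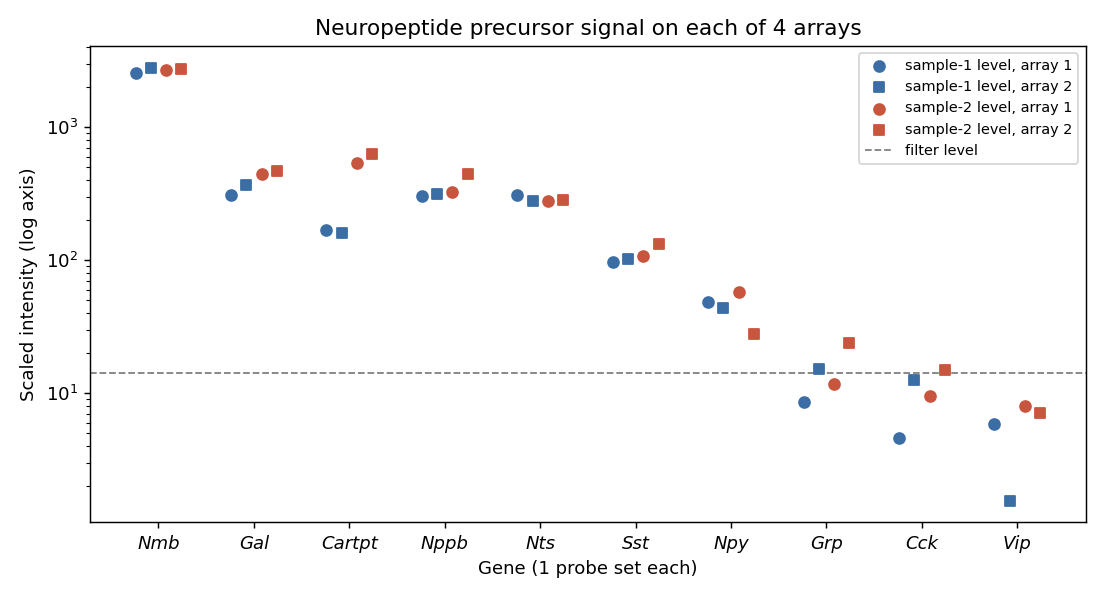
Scaled intensity (log axis) of the 10 neuropeptide genes on each array, circles for array 1 and squares for array 2 of each level, with the filter level of 14.3 dashed. Cartpt is the gene whose levels stand far apart, at 159 to 170.0 against 540.1 to 631; probes differ in affinity, so heights are not to be compared between genes.

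**Figure D2:**
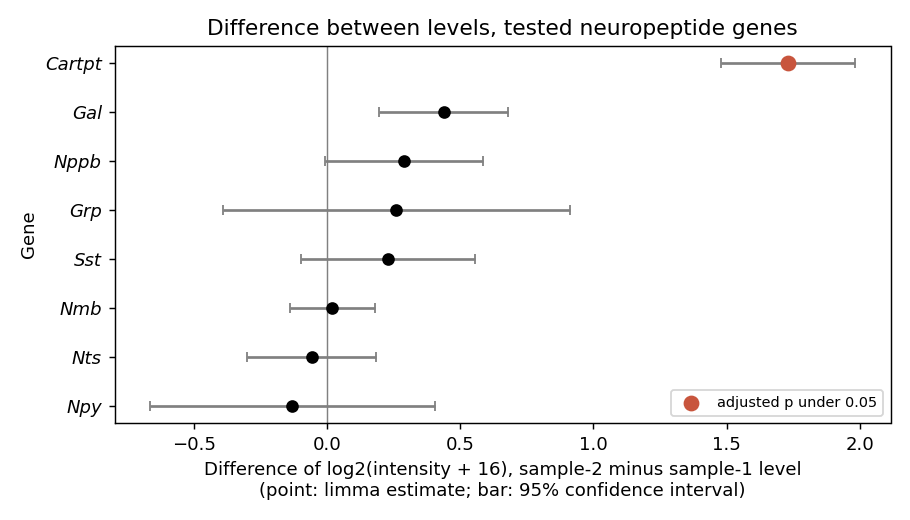
Difference of log2(intensity + 16), sample-2 minus sample-1 level, for the 8 tested genes, as the limma estimate with its 95% confidence interval. The interval of Cartpt starts at 1.48, while the highest upper bound of the others is 0.91, for Grp.

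Galanin, encoded by Gal, is an inhibitory modulator that intact sensory neurons make sparingly. Gal measured 308 and 365 at the sample-1 level against 448 and 472 at the sample-2 level. The arrays of the levels did not overlap, with a gap of 1.23 times between the nearest. The difference was 0.44 ± 0.11, with a 95% interval of 0.20 to 0.68, or 1.15-fold to 1.60-fold. It did not pass (limma, unadjusted p = 0.00201, adjusted p = 0.123), and it did once the array number entered as a block (adjusted p = 0.0126). That setting raised the number of all probe sets past the threshold from 168 to 793.

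Neuropeptide Y, encoded by Npy, is the co-transmitter of sympathetic neurons and appears in large sensory neurons after nerve injury. Npy measured 48.9 and 43.7 at the sample-1 level against 57.8 and 27.9 at the sample-2 level. The sample-2 arrays were the highest and the lowest of the 4 and differed by 2.07 times, so the levels overlapped. The difference was -0.13 ± 0.25 (limma, adjusted p = 0.905), and it lay at 0.25 without sample-2 array 2. Its interval of -0.66 to 0.41 leaves room for changes of either sign.

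Vasoactive intestinal peptide, encoded by Vip, measured 5.86 and 1.56 at the sample-1 level against 8.0 and 7.13 at the sample-2 level. Cholecystokinin, encoded by Cck, measured 4.56 and 12.6 at the sample-1 level against 9.60 and 15.1 at the sample-2 level. All 8 values lay in the lower part of the intensity range, at or below the 38.3 percentile of their arrays, and no detection calls were used. When the filter was dropped the differences were 0.27 ± 0.19 for Vip and 0.22 ± 0.25 for Cck (limma, adjusted p = 0.769 and 0.869). In that fit 0.00888% of all probe sets passed. The Vip values of the levels did not overlap, with a ratio of means of 2.04, whereas those of Cck did.

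Other genes known to respond to axon injury gave no call. Over all 13543 genes taken by their brightest tested probe set, 0.842% passed, 0.295% as higher and 0.546% as lower. An unadjusted p under 0.05 was found for 12.3% of these genes, 5.73% higher and 6.61% lower. The counts of calls and of unadjusted p-values given for lists stand against these shares. Of 12 tested genes of that list, 0 passed (limma), and 3 had an unadjusted p under 0.05, 1 higher and 2 lower. 6 of the 12 differences lay above 0, with a median of 0.0024. The 2 with the largest differences were Sprr1a, a small proline-rich protein of regenerating axons, at 94.3 and 70.6 against 59.4 and 25.2, and Atf3, a stress-induced transcription factor, at 117 and 92.8 against 72.3 and 65.0. Neither passed (adjusted p = 0.238 and 0.241). Lifr, a receptor of leukaemia inhibitory factor and the gene of the list with the smallest p, named after its values were seen, ran the other way at 3275 and 2818 against 3759 and 3733 (adjusted p = 0.129).

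Nppb, Sst and Nts, the peptides of the itch class, were all well above the filter. Nppb encodes brain natriuretic peptide, which carries itch signals to the spinal cord, and measured 302 and 316 at the sample-1 level against 326 and 444 at the sample-2 level. Sample-2 array 2 stood above the other 3 arrays, which lay close together. The difference was 0.29 ± 0.14 (interval -0.01 to 0.59, limma adjusted p = 0.470). It was 0.08 without sample-2 array 2 and 0.50 without sample-2 array 1.

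Sst encodes somatostatin, an inhibitory peptide, and measured 96.2 and 103 at the sample-1 level against 108 and 131 at the sample-2 level. The levels did not overlap, but the nearest arrays differed by 1.05 times only. The difference was 0.23 ± 0.15 (interval -0.10 to 0.55, limma adjusted p = 0.632). As for Nppb, sample-2 array 2 was the highest of the 4 arrays.

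Nts encodes neurotensin and measured 308 and 277 at the sample-1 level against 277 and 284 at the sample-2 level. The values of the levels were interleaved. The difference was -0.06 ± 0.11, with an interval of -0.30 to 0.18 (limma, adjusted p = 0.906), which covers ratios from 0.812 to 1.14. Other markers of nonpeptidergic nociceptors and pruriceptors, counted without these 3 genes, were higher in 2 of 12 cases and lower in 0 (limma). Over all tested genes 0.295% were higher and 0.546% lower. All 12 differences lay above 0, from 0.10 (Il31ra) to 0.55 (Mrgpra3), with a median of 0.31. Of the 12, 8 had an unadjusted p under 0.05, all 8 higher, against 5.73% of all tested genes. Both sample-2 arrays lay above both sample-1 arrays for 11 of the 12, against 21.1% of all tested probe sets. The differences of Nppb (0.29 ± 0.14) and Sst (0.23 ± 0.15) lay inside that range and within their SE of the median. That of Nts lay below the range.

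Nmb encodes neuromedin B, a bombesin-like peptide of nociceptive neurons, and was bright on every array. It measured 2537 and 2810.1 at the sample-1 level against 2672 and 2746 at the sample-2 level. Both sample-2 values fell between the sample-1 values. The difference was 0.02 ± 0.07 (limma, adjusted p = 0.955), and its interval of -0.14 to 0.18, or 0.908-fold to 1.13-fold, was the narrowest of the 8.

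Grp encodes gastrin-releasing peptide, an itch transmitter of the spinal cord whose expression in sensory ganglia has been disputed. Grp measured 8.64 and 15.2 at the sample-1 level against 11.8 and 23.8 at the sample-2 level. At both levels array 2 read higher than array 1, and the levels overlapped. The mean lay just above the filter, the difference was 0.26 ± 0.30 (limma, adjusted p = 0.817), and the interval of -0.39 to 0.91 was the widest of the 8.

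**Figure D3:**
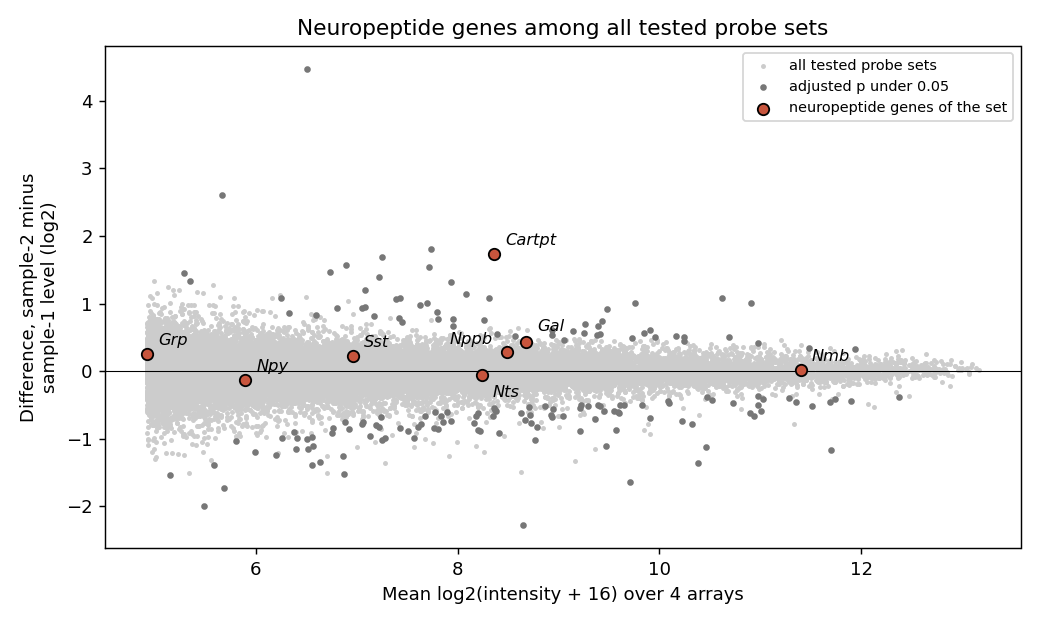
Difference between levels against mean log2(intensity + 16) for all 27022 tested probe sets, with those past adjusted p 0.05 in dark grey and the 8 tested neuropeptide genes in red. Cartpt lies at the upper edge of the cloud at 1.73, and the other 7 lie between -0.13 and 0.44.

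Receptors of these peptides gave no call. Of 24 receptor genes listed, 23 were on the array and 13 were bright enough to be tested. Of those 13, 0 passed (limma) and 5 had an unadjusted p under 0.05, all 5 higher, against 5.73% of all tested genes. 11 of the 13 differences lay above 0 with a median of 0.19, against a median of -0.01 over all 13543 tested genes. Both sample-2 arrays lay above both sample-1 arrays for 8 of the 13 and below for 0, against 21.1% and 20.1% of all tested probe sets. By ligand, these 8 were 3 of 3 tested receptors of neuropeptide Y, 2 of 3 of somatostatin, and 1 each of cholecystokinin, the bombesin-like peptides and the natriuretic peptides. None of the 2 VIP receptors was bright enough to be tested. The receptor with the largest difference was Grpr, which binds gastrin-releasing peptide, at 17.0 and 3.78 at the sample-1 level against 29.5 and 20.7 at the sample-2 level (0.68 ± 0.31, adjusted p = 0.457). Its sample-1 mean of 10.4 lay under the filter level, so it was tested only through the sample-2 level, and its difference depends on the pseudocount. Among the 12 receptors above the filter level at both levels, 10 differences lay above 0, with a median of 0.17, and 7 did not overlap. Sstr4, a somatostatin receptor, followed at 53.8 and 55.4 against 79.9 and 83.0 (0.46 ± 0.16, adjusted p = 0.289). For both, each sample-2 array lay above each sample-1 array.

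Genes that cut and store precursors gave no call. Of 11 processing enzymes and their binding proteins, 0 passed (limma), and 2 had an unadjusted p under 0.05, 1 higher and 1 lower, against 12.3% of all tested genes, with a median difference of 0.09. The largest differences were those of Pcsk6, a proprotein convertase, at 67.5 and 56.6 against 34.5 and 44.2 (-0.50 ± 0.19, adjusted p = 0.352), and of Furin, the convertase of the trans-Golgi network, at 86.9 and 96.4 against 144 and 125 (0.48 ± 0.15, adjusted p = 0.207). Of 14 genes of dense-core vesicles, 0 passed (limma), 7 had an unadjusted p under 0.05, 6 higher and 1 lower, against 5.73% and 6.61% of all tested genes, and the median difference was 0.13. Syt4, a synaptotagmin of dense-core vesicles, measured 1417 and 1323 against 1598 and 1796 (0.30 ± 0.08, adjusted p = 0.159), and Rab27b, a small GTPase of vesicle docking, 694 and 736 against 886 and 866 (0.29 ± 0.09, adjusted p = 0.201). For both, each sample-2 array lay above each sample-1 array, as for 8 of the 14, against 21.1% of all tested probe sets. For 2 of the 14, Chga (-0.21) and Chgb (-0.21), both sample-2 arrays lay below both sample-1 arrays, against 20.1%.

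Among 13 other tested neuropeptide precursors 8 differences lay above 0, with a median of 0.04. Of the 13, 2 were higher and 0 lower (limma), against 0.295% and 0.546% of all tested genes. The 2 were Penk, the enkephalin precursor, at 112 and 86.6 against 342 and 427, and Tac1, the substance P precursor, at 3549 and 3426 against 4291 and 4461. The difference of Penk was 1.80 ± 0.15 (adjusted p = 0.000187), close to that of Cartpt, and that of Tac1 was 0.33 ± 0.06 (adjusted p = 0.0463). Without the filter neither passed, with adjusted p = 0.0760 and 0.397, Penk also lost its call without the intensity trend (adjusted p = 0.305), and the call of Tac1 was lost in 7 of 12 alternative settings. The other 17 precursors on the array were too dim to be tested.

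**Figure D4:**
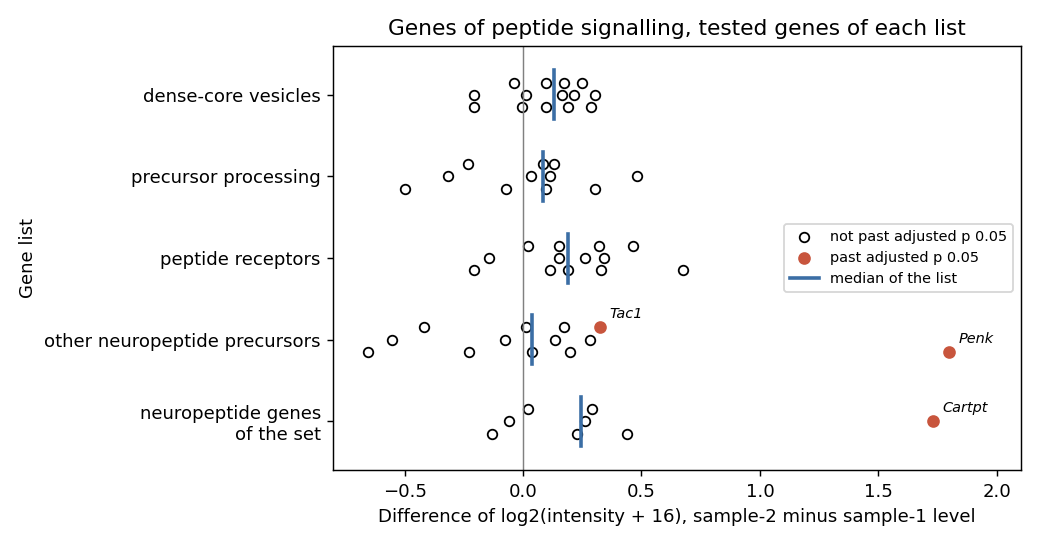
Difference of log2(intensity + 16), sample-2 minus sample-1 level, of each tested gene of 5 lists, filled where adjusted p was under 0.05, with the median of each list as a bar. Cartpt (1.73) and Penk (1.80) stand apart, and the medians lie between 0.04 and 0.24.

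The probe sets whose pattern over the 4 arrays lay nearest to that of Cartpt were found by the root mean square difference of log2 values, each centred on its own mean. Penk was nearest at 0.093, followed by the homeobox gene Hoxd11 at 0.17 and Chrna3, a nicotinic acetylcholine receptor subunit, at 0.18. Hoxd11 measured 8.36 and 6.88 at the sample-1 level, under the filter level, against 50.3 and 47.3 at the sample-2 level. Chrna3 measured 46.9 and 59.0 against 194 and 183. All 3 were low on both sample-1 arrays and high on both sample-2 arrays, and likeness over 4 arrays of 2 groups mainly ranks the size of the difference.

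Sympathetic neurons also express Chrna3 and Chrnb4 and, in part, Cartpt, so the markers of those neurons were read beside them. Dbh, the enzyme that makes noradrenaline, measured 32.3 and 11.7 at the sample-1 level against 27.03 and 24.6 at the sample-2 level (limma, adjusted p = 0.868). Slc6a2, the noradrenaline transporter, measured 29.6 and 29.3 against 19.8 and 20.9 (adjusted p = 0.669). Maob, a monoamine oxidase, named after its values were seen, measured 41.4 and 48.0 against 65.4 and 64.2 (adjusted p = 0.421). Among the 8 tested sympathetic markers, counted without Npy, 6 differences lay above 0, with a median of 0.18. Among all tested probe sets 51.1% lay above 0. An unadjusted p under 0.05 was found for 2 of the 8, Th and Maob, both higher, against 5.73% of all tested genes. Both sample-2 arrays lay above both sample-1 arrays for those 2 and below for 2 others, Slc6a2 and Ddc. The shares over all tested probe sets were 21.1% and 20.1%. Another 3 genes of the list were too dim to be tested. Of the 8, 1 was higher, Th, which a class of sensory neurons also expresses, at 656 and 748 against 954 and 1020.5 (adjusted p = 0.0461). The summed intensity of the list was 914 to 974 at the sample-1 level and 1238 to 1264 at the sample-2 level, of which Th made up the greater part. The part of sympathetic neurons in the results was not tested.

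The RNA had the markers of sensory ganglia at both levels. All 16 pan-neuronal and sensory markers, Avil, Isl1, Pou4f1 and Prph among them, were bright enough to be tested, and 1 was higher, Syt1 (limma). Of the 16 differences 12 lay above 0, with a median of 0.07. Both sample-2 arrays lay above both sample-1 arrays for 8 of the 16 and below for 0, against 21.1% and 20.1% of all tested probe sets. The summed intensity of the 16 was 63354 to 63990.5 at the sample-1 level and 64323 to 68341 at the sample-2 level. Several other lists moved with the level, read against 0.295% of all tested genes called higher and 0.546% called lower. Neutrophil markers were higher in 6 of 9 cases (summed intensity 3329 to 3983 against 6682 to 8402), and markers of fibroblasts and meninges were lower in 6 of 11 (13526 to 15387 against 8534 to 8974). Schwann cell markers were lower in 1 of 7 cases (17454 to 18872 against 13318 to 17069), and 5 of the 7 had an unadjusted p under 0.05, all 5 lower. Peptidergic nociceptor markers were higher in 2 of 7, Trpv1 and Tac1, and Tac1 is the gene already counted among the precursors. Of these 7 differences 6 lay above 0. The other was that of Nefh (-0.22, limma adjusted p = 0.302), a neurofilament gene of large myelinated neurons that does not mark peptidergic nociceptors alone. Markers of silent nociceptors were higher in 2 of 3, Chrna3 and Chrnb4. Satellite glia, endothelium and fat had 0 of 7, 0 of 7 and 0 of 2 past (limma). In each of these lists 1 gene had an unadjusted p under 0.05, against 12.3% of all tested genes. Of their differences 0 of 7, 2 of 7 and 2 of 2 lay above 0, against 51.1% of all tested probe sets. A list of spinal cord and gut genes had 0 of 6 past (limma) and 0 at an unadjusted p under 0.05. The 6 were Gad1, Lhx5, Tlx3, Nos1 and the glial genes Gfap and Aqp4, so they do not stand for neurons alone. Another 8 genes of that list were too dim to be tested. Skeletal muscle markers were lower in 1 of 10 cases, Myh2. Its sample-2 mean of 6.92 lay under the filter level, so it was tested only through the sample-1 level. The sum of the 10 muscle markers was 7253 on sample-1 array 2 against 1164 to 1718 on the other 3 arrays. Without that array the difference of Cartpt was 1.69 (adjusted p = 5.17e-05). The part of the neutrophil, connective tissue and Schwann cell shifts in the results was not tested.

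**Figure D5:**
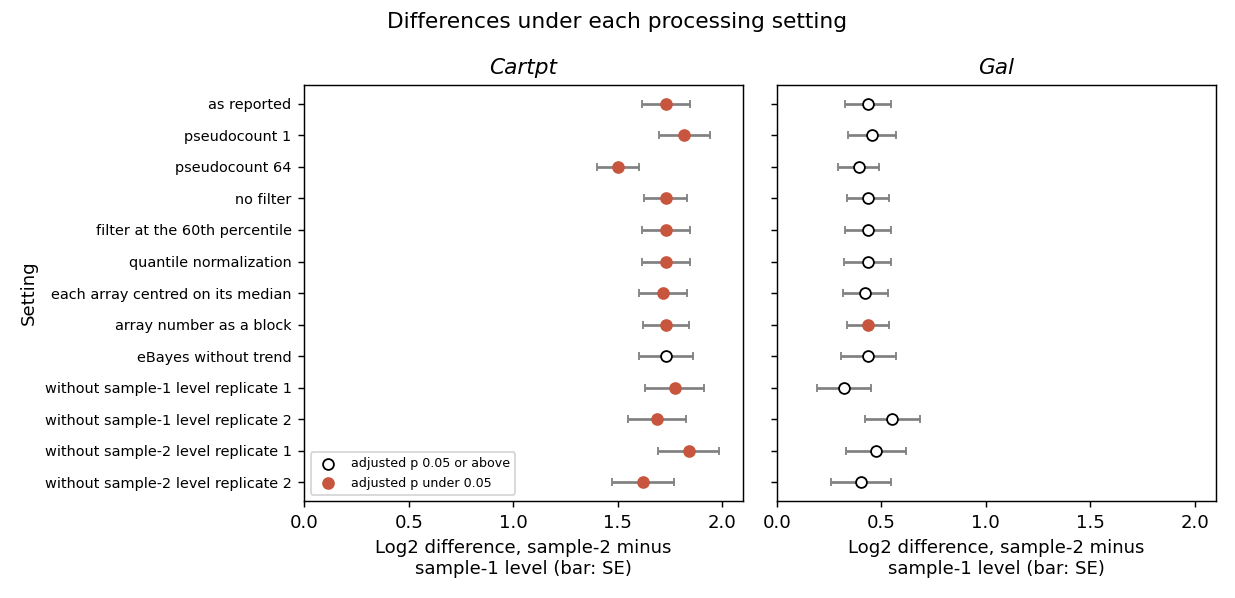
Log2 difference, sample-2 minus sample-1 level, of Cartpt and Gal as reported and under 12 alternative settings, with the SE as a bar and filled points where adjusted p was under 0.05. Cartpt stayed between 1.503 and 1.84 and lost its call in 1 setting. Gal stayed between 0.32 and 0.55. It gained a call when the array number entered as a block, where 793 of all probe sets passed against 168 as reported.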

How the data were processed

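The deposited intensity values, 1 per probe set and array on a linear scale, were used as the authors scaled them. The mean of every array was 150.0 after the highest and lowest 2% of values were trimmed. The software behind them was not given in the sources used here. Values were taken as log2(intensity + 16). The 64 control probe sets and those under the 40th percentile of the mean were left out, and 27022 were fitted with limma 3.58.1 (R 4.3.3; lmFit, eBayes with an intensity trend, no covariate), as sample-2 minus sample-1 level. A probe set passed where its p, adjusted by Benjamini-Hochberg over all tested probe sets, was under 0.05. The fit was run on simulated data with known changes. Their spread was drawn from the fitted model itself, so the run cannot judge the choice of the intensity trend.

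Gene names came from the platform annotation, and gene IDs of all 10 genes matched a RefSeq table of GRCm38.p6. Lists were counted by the tested probe set with the highest mean of each gene, without the 10 genes, and no set test was run. The rule named every gene of the set, the genes past the threshold of each list or, where none passed, the 2 with the largest difference, and the 3 probe sets nearest to Cartpt; of the marker lists for other cells, only genes beside a result are named. Slc6a2 and Dbh were named as defining markers. The genes and lists were chosen with earlier results of these data known. As alternatives the pseudocount was set to 1 or 64, the filter was dropped or moved to the 60th percentile, arrays were quantile-normalized or median-centred, the array number entered as a block, the intensity trend was dropped, and each array was left out, with the filter then taken over the arrays that remained.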

Additional observations from a re-analysis of the deposited data

How the results depend on the processing

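Cartpt kept its direction in 12 of 12 alternative settings, between 1.503 and 1.84, and its call in 11. It lost the call without the intensity trend, where the difference was 1.73 (adjusted p = 0.277) and 0 of the 8 genes passed (limma). The cause was not tested. Leaving out each array in turn gave 1.62 to 1.84 for Cartpt and 1 gene of the set past each time. With the array number as a block 2 genes passed, Cartpt and Gal. The labels give the arrays of each level the numbers 1 and 2, but the differences between array 2 and array 1 of the 2 levels correlated at only 0.03 over the tested probe sets, so the arrays share a number and nothing more is known. The block raised the number of probe sets past the threshold from 168 to 793 and gave 1 dense-core vesicle gene. No filter left 4 probe sets, centring on the median 104 and no intensity trend 1, and leaving out each array 102 to 241. Of the other neuropeptide precursors, 1 passed with a pseudocount of 1 and with median centring, 0 without the filter and 0 without the trend (limma), and 1 to 2 with an array left out. Processing enzymes had 0 to 1 past with an array left out. Differences that had not passed changed sign with an array left out for Npy (-0.50 to 0.25), Nmb (-0.053 to 0.094) and Nts (-0.13 to 0.013). Grp and Npy fell under the filter at the 60th percentile, and Grp also when array 2 of either level was left out, so those settings gave no value. Vip and Cck were tested only without the filter. Low signal limits what can be said of Vip, Cck and Grp.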
